A study of Mus musculus with 6 samples.

Results

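Genes grouped as ATF4 targets that restrain mTORC1 signalling and growth were followed in whole mouse brain with and without TRMT1L, a relative of the tRNA methyltransferase TRMT1. The group holds 9 of the 55450 genes in the count tables, taken by symbol, with earlier results of these data known: Sesn2, Ddit4, Trib3, Eif4ebp1, Chac1, Nupr1, Cebpb, Vldlr and Gdf15. Long RNA, depleted of molecules below the size limit of the preparation, was sequenced from 3 TRMT1L knockout brains (KO1 to KO3) and 3 wild-type brains (WT1 to WT3). The labels give genotype and tissue for each library, and no strain, age, sex, allele or way in which the knockout was made.

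When the translation factor eIF2 is phosphorylated, general translation slows while the mRNA of the transcription factor ATF4 is translated more. ATF4 then induces genes for amino acid supply together with a set of brakes: proteins that lower the activity of the kinase complex mTORC1, hold back the cap-binding factor eIF4E, or slow growth in other ways. In the brain this programme is known from amino acid shortage, endoplasmic reticulum stress and mitochondrial faults.

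ATF4 binds as a dimer with C/EBP proteins to a composite element whose core can be written TGATGNAA, or TTNCATCA when read on the other strand. RefSeq promoter windows (GRCm38.p6, 300 bases that end 50 bases after a start site) were held for 8 of the 9 genes, in 10 windows, and not for Eif4ebp1. The core was searched on both strands and was found in 4 of the 10 windows, each for a different gene, against 3.97% of all 32851 mouse windows of that length. Those 4 matches are printed because they are the letters the 4 genes share, with 11 bases on each side in lower case and the match in capitals, 5′ to 3′ on the gene's strand.
Chac1 (chr2:119351038-119351067, plus strand): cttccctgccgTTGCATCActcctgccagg
Nupr1 (chr7:126625562-126625591, minus strand): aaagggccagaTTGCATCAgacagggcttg
Vldlr (chr19:27216809-27216838, plus strand): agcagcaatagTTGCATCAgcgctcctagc
Trib3 (chr2:152344028-152344057, minus strand): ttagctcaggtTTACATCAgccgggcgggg
The match began 193 bases before the RefSeq start site in Chac1, 110 before it in Nupr1, 200 before it in the second of 2 Vldlr windows, and 14 after it in Trib3. In Nupr1 and Vldlr it lay inside an exon of another GENCODE M21 transcript of the same gene. Chac1, Nupr1 and Vldlr held the same 8 letters, and Trib3 differed from them at the free position of the core. The cAMP response element TGACGTCA was in 0 of the 10 windows and in 1.79% of all windows. The E-box CACGTG was in 2, of Nupr1 and Gdf15, and in 7.15% of all windows.

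The windows of Sesn2, Ddit4, Cebpb and Gdf15 held no match to the core. The Sesn2 stretch is printed because that gene separated the genotypes most evenly, as described below, and it is shown in lower case from the start of the window to the base before the GENCODE exon (chr4:132510502-132510706, minus strand).
Sesn2: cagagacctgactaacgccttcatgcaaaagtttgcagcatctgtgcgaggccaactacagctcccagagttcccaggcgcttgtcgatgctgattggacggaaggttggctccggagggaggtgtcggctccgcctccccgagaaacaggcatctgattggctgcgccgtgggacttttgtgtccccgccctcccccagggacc

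Counts in genes on the sense strand lay between 31201119 and 36145961 per library. The targeted gene Trmt1l stood at 34.4 ± 1.26 CPM (counts per 1000000, with library sizes scaled by TMM factors) in WT and at 2.87 ± 0.171 CPM in KO (SD, n = 3 each). All 8 neuronal markers examined were present, at a summed level of 4490 to 4840 CPM per library, and none of the markers of 8 cell classes was at 0 throughout. The labels call the libraries biological triplicates. Where a group level differs in whole tissue, fewer cells of a type and less RNA per cell cannot be told apart.

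Of the 9 genes, 8 had enough counts to be tested, and Gdf15 did not pass the filter on low counts. After Benjamini-Hochberg adjustment over 21237 genes, 0 of the 8 were under 0.05 in the quasi-likelihood test of edgeR, where 0.00942% of all genes were. Without adjustment 5 of the 8 had a p-value under 0.05 and a higher level in KO (Sesn2, Nupr1, Ddit4, Trib3 and Eif4ebp1), against 4.54% of all genes. On the lower side there was 1 (Vldlr), against 3.38%. The median log2 fold change of the 8 was 0.41, and that of all genes tested was 0.000133. DESeq2 gave the same counts of 5 and 1 without adjustment and called 0, with an adjusted p-value for only 2 of the genes. Limma-voom gave 3 and 1 and called 0. The shares over all genes without adjustment were not taken for DESeq2 and limma-voom. Every KO library lay above every WT library for 2 of the 8 genes, Sesn2 and Nupr1, against 7.46% of all genes. Every KO library lay below every WT library for Vldlr, against 6.97%. KO3 stood apart from all other libraries for several of the genes, so values without it are given beside theirs.

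The call depended on the filter. Without one, 6 of the 9 genes had an adjusted p-value under 0.05 (Gdf15, Trib3, Nupr1, Ddit4, Sesn2 and Eif4ebp1, between 2.80e-05 and 0.0407 in the same edgeR test), against 0.800% of 37245 genes. In that fit the prior degrees of freedom were infinite, so no gene had a spread of its own, while they were 7.53 with the filter.

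**Figure D1:**
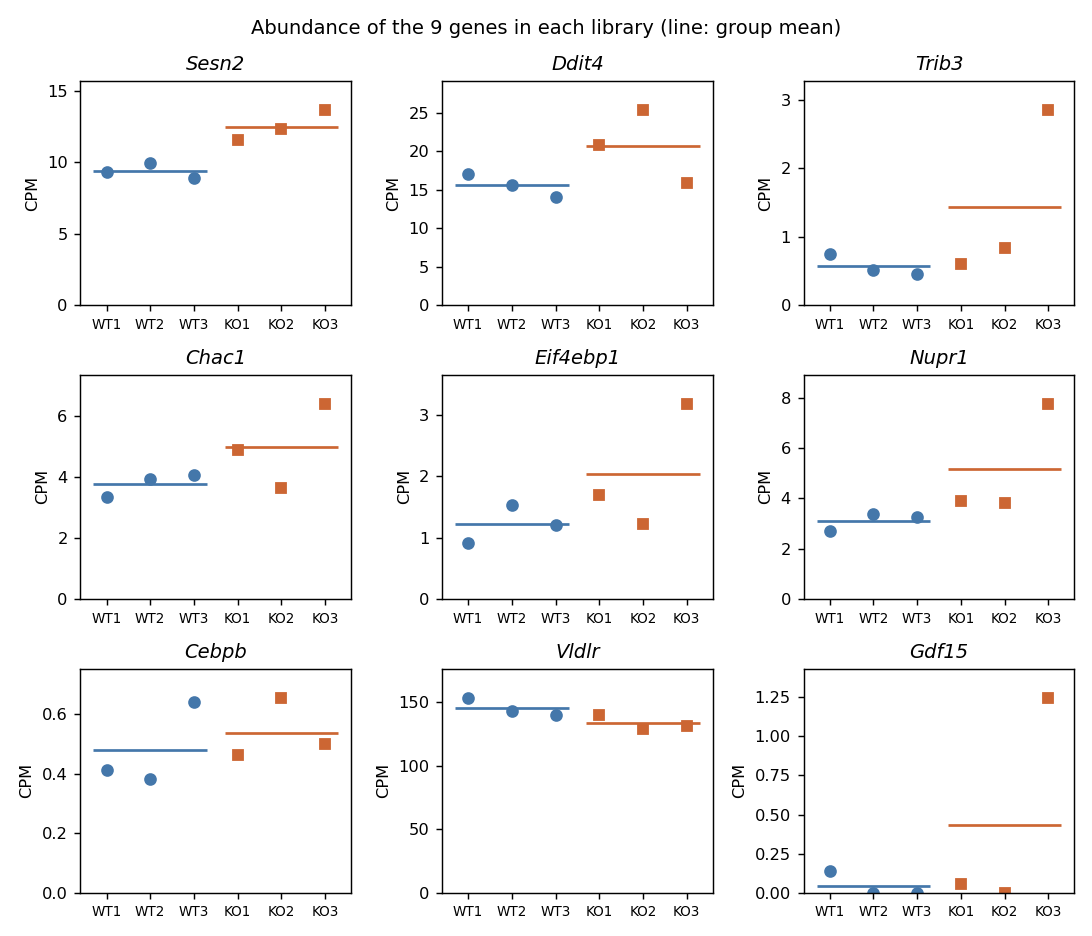
Abundance in CPM (vertical axes, each from 0) of the 9 genes in WT1 to WT3 (circles) and KO1 to KO3 (squares), with group means as lines. Sesn2 lies higher in all KO libraries, whereas Trib3, Gdf15, Nupr1 and Eif4ebp1 stand far above the rest in KO3 alone.

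Sesn2 (ENSMUSG00000028893.8; chromosome 4, 132492032 to 132510501, minus strand) encodes sestrin 2, a leucine-binding protein that inhibits mTORC1 through the GATOR complexes. Its abundance was 9.34, 9.95 and 8.93 CPM in WT1 to WT3, against 11.6, 12.3 and 13.6 CPM in KO1 to KO3, from 294 to 493 counts. The KO values all lay above the WT values, and the KO mean of 12.5 ± 1.05 CPM was 32.9% above the WT mean of 9.41 ± 0.512 CPM (SD, n = 3). Its log2 fold change of 0.41 (SE 0.0927) had an unadjusted p-value of 9.03e-04, rank 34 among all genes tested, and an adjusted one of 0.550 in edgeR. Leaving out KO1, KO2 or KO3 gave 0.46, 0.42 and 0.34. Among WT libraries its SD was 5.45% of its mean. The noncoding gene Gm12981 lies in Sesn2 on the same strand and shares no exon base with it.

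For the sestrin paralogs the log2 fold change was -0.06 (SE 0.0491) in Sesn3 and 0.02 (SE 0.0594) in Sesn1. With 1 library left out they ran from -0.10 (without WT1) to -0.02 (without WT3) and from -0.04 (without KO2) to 0.06 (without KO3), and in both the KO values overlapped the WT values. Per kilobase of exon, Sesn2 was the lowest of the 3, at 3.15 CPM per kb over all libraries against 13.6 for Sesn1 and 17.2 for Sesn3.

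Ddit4 (chromosome 10, 59949669 to 59951834, minus strand) encodes REDD1, which inhibits mTORC1 through the TSC complex and is also induced by glucocorticoids and low oxygen. Its abundance was 17.0, 15.6 and 14.1 CPM in WT1 to WT3, against 20.8, 25.3 and 15.9 CPM in KO1 to KO3. KO3 lay inside the WT range, so the groups overlapped, and the other KO libraries lay above it. In edgeR the log2 fold change came to 0.41 (SE 0.140; unadjusted p-value 0.0133, adjusted 0.579). It was 0.24 without KO2 and 0.57 without KO3. The paralog Ddit4l had -0.12 (SE 0.135), with overlapping groups. It had -0.03 without KO2 and, without KO3, -0.29 with an unadjusted p-value of 0.0225 in edgeR.

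KO2, where Ddit4 was highest, was also the highest library for all 12 glucocorticoid-responsive genes examined, against 4638 of the 21237 genes tested. The summed level of the 12 was 569 to 626 CPM in WT and 731, 1059 and 584 CPM in KO1 to KO3. Within each genotype Ddit4 and this sum put the 3 libraries in the same order. Fkbp5 and Sgk1, named after their values were seen, stood at 46.3 and 133.8 CPM in KO2, where the next highest library had 24.1 and 69.8 CPM. The metallothionein genes Mt1 and Mt2, which with Cdkn1a had the smallest p-values of the list, were higher in every KO library than in any WT library. Mt1 was 79.4 to 92.8 CPM in WT and 115.2, 134.5 and 112.8 CPM in KO1 to KO3, and Mt2 was 25.9 to 29.8 CPM in WT and 38.1, 60.2 and 38.5 CPM in KO1 to KO3. The part of this response in the level of Ddit4 was not tested.

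Trib3 (chromosome 2, 152337422 to 152344032, minus strand) encodes a pseudokinase that binds AKT and ATF4 and is a sensitive ATF4 target. Its counts were 27, 16 and 15 in WT1 to WT3, against 21, 28 and 103 in KO1 to KO3, or 0.742, 0.510 and 0.456 CPM against 0.604, 0.832 and 2.85 CPM. KO1 was inside the WT range and KO2 just above it, and KO3 was 3.43 times the next highest library. The exact 95% Poisson interval of its 103 counts, which covers counting error only, was 84.1 to 125. The fitted log2 fold change of 1.32 (SE 0.519), with an unadjusted p-value of 0.0264 and an adjusted one of 0.600 in edgeR, was the largest of the 8 genes in absolute size, and it was 0.32 (SE 0.319) without KO3. Trib1 had 0.15 (SE 0.145) and Trib2 0.02 (SE 0.0761). Neither was high in KO3: Trib1 was lowest there, at 11.3 CPM, and Trib2, at 36.9 CPM, was inside its WT range. Leaving out KO2 turned the sign of both, to -0.02 and -0.03, and Trib1 had 0.33 without KO3, with an unadjusted p-value of 0.00378 in edgeR.

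Eif4ebp1 (chromosome 8, 27260329 to 27276674, plus strand) encodes 4E-BP1, which binds eIF4E and blocks cap-dependent translation until mTORC1 phosphorylates it. Its abundance was 0.907, 1.53 and 1.22 CPM in WT1 to WT3, against 1.70, 1.22 and 3.18 CPM in KO1 to KO3. KO2 fell inside the WT range, and KO3 was 1.87 times the next highest library. In edgeR the log2 fold change came to 0.75 (SE 0.326; unadjusted p-value 0.0401, adjusted 0.622) with all libraries, and to 0.27 (SE 0.260) without KO3. The main 4E-BP of the brain by these levels was Eif4ebp2, at 11.5 CPM per kb over all libraries against 0.740 for Eif4ebp1 and 1.34 for Eif4ebp3. Eif4ebp2 had 0.11 (SE 0.0598) and Eif4ebp3 0.27 (SE 0.213), and neither had an unadjusted p-value under 0.05. Eif4ebp3 had 0.17 without WT2. Eif4ebp2 had 0.06 without KO2 and, without KO1, 0.17 with an unadjusted p-value of 0.0105 in edgeR.

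Nupr1 (chromosome 7, 126623249 to 126630861, minus strand) encodes a small stress-induced nuclear protein. Its abundance was 2.72, 3.38 and 3.25 CPM in WT1 to WT3, against 3.91, 3.80 and 7.75 CPM in KO1 to KO3. All KO values were above all WT values, KO1 and KO2 by a small margin, and KO3 was 1.98 times the next highest library. The KO mean was 5.15 ± 2.25 CPM and the WT mean 3.12 ± 0.350 CPM (SD, n = 3). In edgeR the log2 fold change came to 0.73 (SE 0.249; unadjusted p-value 0.0129, adjusted 0.579), and to 0.31 (SE 0.151) without KO3.

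Chac1 (chromosome 2, 119351229 to 119354381, plus strand) encodes an enzyme that degrades glutathione and is a textbook target of the ATF4 branch. Its abundance was 3.35, 3.92 and 4.07 CPM in WT1 to WT3, against 4.89, 3.62 and 6.39 CPM in KO1 to KO3. KO2 lay within the WT range and the other KO libraries above it. In edgeR the log2 fold change came to 0.40 (SE 0.186; unadjusted p-value 0.0546, adjusted 0.628), 0.58 without KO2 and 0.175 without KO3. Its paralog Chac2, whose enzyme has the same activity and is not known as an ATF4 target, had 0.13 (SE 0.120), 0.07 without KO2 or without WT1, and 0.20 without KO3.

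Gdf15 (chromosome 8, 70629393 to 70632456, minus strand) encodes a secreted stress hormone that acts on a receptor in the hindbrain and lowers food intake. Its counts were 5, 0 and 0 in WT1 to WT3, against 2, 0 and 45 in KO1 to KO3. The exact 95% Poisson interval of the 45 counts in KO3 was 32.8 to 60.2. The other 5 libraries were at or near 0, so no group mean describes this gene.

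Cebpb (chromosome 2, 167688915 to 167690418, plus strand) encodes C/EBPβ, a transcription factor that pairs with ATF4 and is itself induced under stress. Of its exon bases, 20.7% also lie in exons of Tmem189 on the other strand. Its counts were 15, 12 and 21 in WT1 to WT3, against 16, 22 and 18 in KO1 to KO3. The groups overlapped, though not without WT3, where the log2 fold change was 0.43. In edgeR the log2 fold change came to 0.17 (SE 0.302; unadjusted p-value 0.591, adjusted 0.917), a size below its SE. Counting alone gives this gene a spread of 24.0% per library. Of its paralogs, Cebpd had 0.60 (SE 0.207; unadjusted p-value 0.0134 in edgeR), with 1.12 to 1.24 CPM in WT and 1.35 to 2.17 CPM in KO. It was the single paralog of the 13 examined with an unadjusted p-value under 0.05, where 4.54% of all genes had one and a higher KO level. Without KO2 it had 0.44 with an unadjusted p-value of 0.0620 in edgeR. Cebpa had 0.21 (SE 0.150), 0.12 without KO2 and 0.33 without KO3, and Cebpg had 0.08 (SE 0.0591) and 0.04 without WT2. The median over the 13 paralogs was 0.105. For 2 of them (Cebpd and Cebpg) every KO library lay above every WT library, against 7.46% of all genes.

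Vldlr (chromosome 19, 27216484 to 27254231, plus strand) encodes the very low density lipoprotein receptor, which takes up lipoproteins and, in the brain, receives the reelin signal. It was the one gene of the 8 tested with a lower KO mean, at 153.5, 143.3 and 139.87 CPM in WT1 to WT3, against 139.86, 129.2 and 131.7 CPM in KO1 to KO3. The groups did not overlap, but WT3 and KO1 were almost equal, and the separation was lost when libraries were scaled to total counts, when no filter on low counts was used, and without WT1 or KO3. The KO mean of 133.6 ± 5.59 CPM was below the WT mean of 145.5 ± 7.08 CPM (SD, n = 3), a log2 fold change of -0.12 (SE 0.0509), with an unadjusted p-value of 0.0319 and an adjusted one of 0.614 in edgeR. The unadjusted p-value was over 0.05 when WT1, KO2 or KO3 was left out. The second reelin receptor gene, Lrp8, had 0.10 (SE 0.0603), with overlapping groups. It had 0.06 without WT2 or without KO2. Without WT3 or without KO1 it had 0.15, with unadjusted p-values of 0.0444 and 0.0468 in edgeR.

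**Figure D2:**
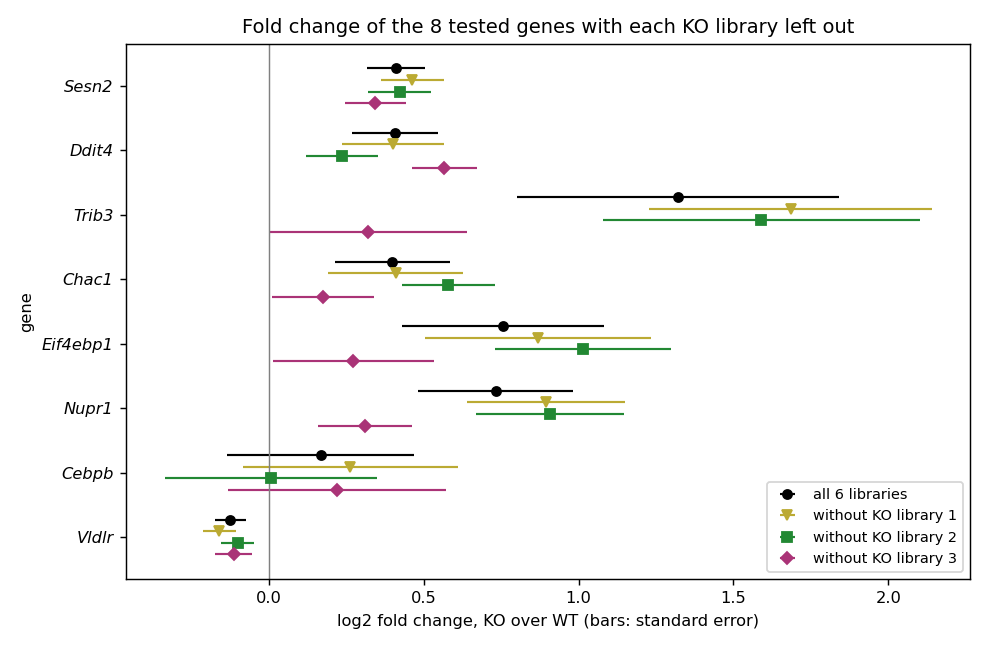
Log2 fold change of KO over WT (horizontal axis, bars are standard errors) for the 8 tested genes with all 6 libraries and with KO1, KO2 or KO3 left out. Sesn2 stays between 0.34 and 0.46, while Trib3, Eif4ebp1, Nupr1 and Chac1 shrink to between 0.175 and 0.32 without KO3.

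Levels were compared between the genes per kilobase of exon. In WT the order was Vldlr (14.5 ± 0.703 CPM per kb), Ddit4 (8.87 ± 0.846), Sesn2 (2.71 ± 0.147), Chac1 (2.31 ± 0.232), Nupr1 (1.24 ± 0.139), Eif4ebp1 (0.555 ± 0.142), Cebpb (0.318 ± 0.0929), and Trib3 (0.268 ± 0.0715; SD, n = 3), with Gdf15 last. The WT libraries of Eif4ebp1 overlapped those of Cebpb, and those of Cebpb overlapped those of Trib3. The other neighbours in this order did not overlap. In KO, of the same neighbours, the libraries of Vldlr and Ddit4, Sesn2 and Chac1, Chac1 and Nupr1, Cebpb and Trib3, and Trib3 and Gdf15 overlapped. Trib3 was below Cebpb in KO1 (0.284 against 0.306 CPM per kb) and KO2 (0.391 against 0.4345), as in the WT means, and above it in KO3 (1.34 against 0.331).

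**Figure D3:**
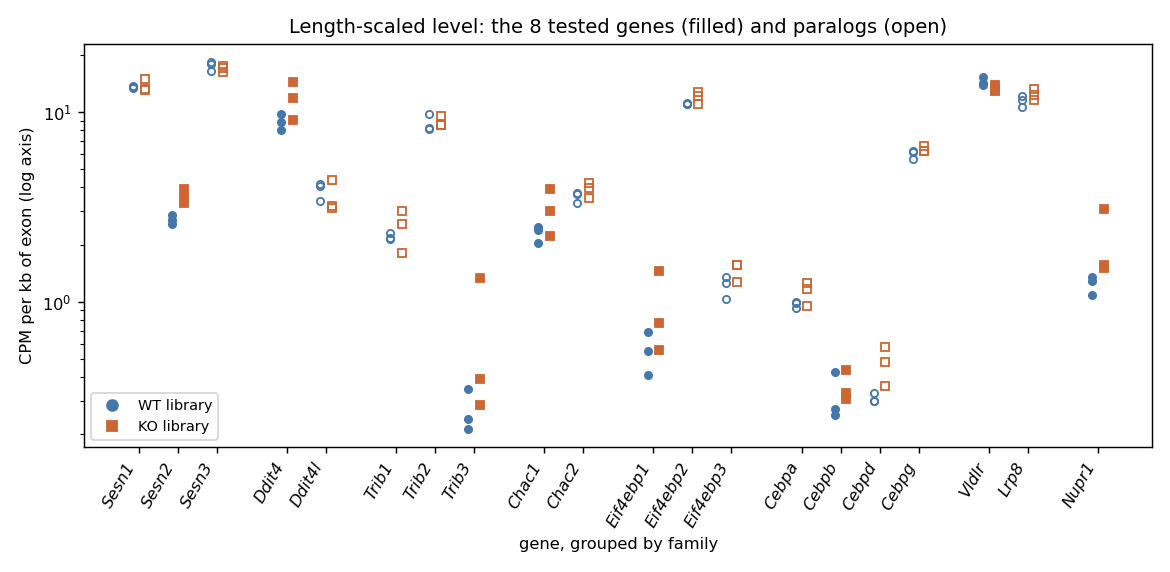
CPM per kilobase of exon (log axis) in every WT (circles) and KO (squares) library for the 8 tested genes (filled) and paralogs (open), grouped by family. Sesn2, Trib3, Eif4ebp1, Chac1 and Cebpb have the lowest mean over the 6 libraries of the genes shown in their families. Cebpb (0.337) is close to Cebpd (0.392), and not below it in WT alone. The KO libraries of Trib3 and Eif4ebp1 spread more widely than those of their paralogs.

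The libraries differed in which of the genes were highest in them. KO3 was the highest of the 6 libraries for 5 of the 8 tested genes (Sesn2, Trib3, Chac1, Eif4ebp1 and Nupr1), against 18.7% of all genes. It was at least 1.5 times every other library for 3 of them (Trib3, Eif4ebp1 and Nupr1), against 0.315% of all genes. These rules were set after the values were seen. KO2 was highest for Ddit4 and Cebpb. Over the 21237 genes tested, KO2 was highest for 4638 and KO3 for 3964, and they were at least 1.5 times every other library for 111 and 67. WT1 was highest for Vldlr and the lowest library for Eif4ebp1, Nupr1 and Chac1. Without KO3, Sesn2 and Ddit4 were the 2 genes of the 8 with an unadjusted p-value under 0.05 and a higher KO level, against 4.42% of all genes tested in that fit, and the median log2 fold change was 0.29. Without WT3 there were also 2 (Sesn2 and Nupr1), and without WT1 there were 3 (Sesn2, Ddit4 and Trib3). The share over all genes was not taken without WT3 or without WT1.

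Eif4ebp1 and Nupr1 were the closest pair across the 6 libraries, with a root mean square distance of 0.175 between their centred log2 CPM values. The nearest gene to Trib3 was Nupr1 (0.468), and the nearest to Chac1 was Sesn2 (0.225). Ddit4 and Trib3 were the farthest pair (0.874), the first being highest in KO2 and the second in KO3.

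**Figure D4:**
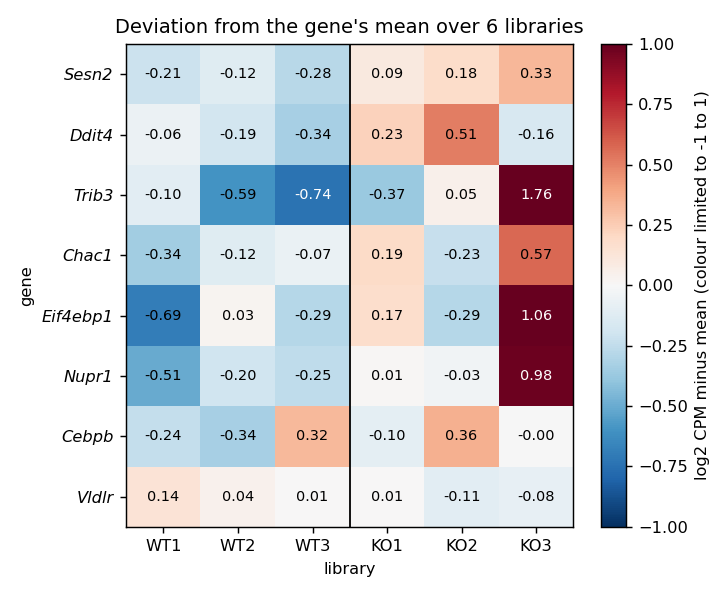
Log2 CPM (prior count 2) of the 8 tested genes minus each gene's mean over the 6 libraries, by library, with colours limited to -1 to 1. Trib3, Eif4ebp1 and Nupr1 share their highest value in KO3 (1.76, 1.06 and 0.98), and Ddit4 has its highest in KO2 (0.51).

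KO3 also lay at the end of the range in several measures of the libraries. Its reads in no gene were 48.6% of mapped reads, the lowest of the 6 libraries (49.3% to 52.2% in the others). The summed level of the 7 oligodendrocyte markers was 3570 CPM, against 4145 to 4577 CPM in WT and 3928 and 4276 CPM in the other KO libraries. Its 10 immediate early genes summed to 204.0 CPM, against 283.4 to 342.6 CPM in WT and 392.9 and 452.9 CPM in the other KO libraries. The 8 neuronal markers summed to 4490 CPM, the lowest value (4633 to 4840 CPM elsewhere). The 8 endothelial and mural markers summed to 421.2 CPM, the highest (366.4 to 405.5 CPM elsewhere), with 6 of the 8 highest in KO3, against 18.7% of all genes. The astrocyte marker Gfap, named after its values were seen, was 248.0 CPM there and 114.7 to 140.2 CPM elsewhere, while the 7 astrocyte markers together were lowest there (5012 CPM, against 5190 to 5368 CPM elsewhere). The part of these in the levels of Trib3, Gdf15, Nupr1, Eif4ebp1 and Chac1 was not tested.

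Atf4 mRNA itself was 61.2, 57.7 and 56.1 CPM in WT1 to WT3, against 75.6, 65.1 and 64.8 CPM in KO1 to KO3. It was highest in KO1, not in KO3. Of the 10 genes for eIF2 kinases, phosphatase subunits and ATF4-linked factors, 4 had an unadjusted p-value under 0.05 and a higher KO level. Over all genes the share was 4.54%. After adjustment 0 of the 10 passed in edgeR, and the median log2 fold change of the 10 was 0.13. The 4 kinase genes Eif2ak1 to Eif2ak4 were not among the 4. Atf5, named after its values were seen, had 7.997, 8.10 and 11.15 CPM in WT1 to WT3, against 10.7, 10.55 and 21.7 CPM in KO1 to KO3. It was the 1 gene of the 10 for which KO3 was at least 1.5 times every other library. KO3 was highest for 4 of the 10, and KO2 also for 4.

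The supply side of the same programme was taken as 20 ATF4 targets for amino acid transport and synthesis. In edgeR 11 of them had an unadjusted p-value under 0.05 and a higher KO level and 0 a lower one. Over all genes the shares were 4.54% and 3.38%. After adjustment 0 of the 20 passed, and their median log2 fold change was 0.20. For 12 of the 20 every KO library lay above every WT library, against 7.46% of all genes. KO3 was highest for 13, against 18.7% of all genes, and at least 1.5 times every other library for 2, against 0.315%. The 4 smallest p-values belonged to the genes named next. Slc7a5, the light chain of a large neutral amino acid transporter, had 0.46 (SE 0.103), with 46.7 to 62.1 CPM in WT and 70.0 to 86.8 CPM in KO. Its heavy chain partner Slc3a2 had 0.24 (SE 0.0709), Mthfd2, a mitochondrial folate enzyme, had 0.38 (SE 0.118), and Slc1a5, a glutamine transporter, had 0.95 (SE 0.296). Slc1a5 was 2.59 and 2.88 CPM in KO1 and KO2 and 6.11 CPM in KO3, against 1.63 to 2.23 CPM in WT.

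Genes of mTORC1 signalling were compared next. Over all genes tested, 4.54% had an unadjusted p-value under 0.05 in edgeR with a higher KO level, and 3.38% with a lower one. Of the 9 genes for mTORC1 subunits and its RHEB branch, 1 (Akt1s1) had an unadjusted p-value under 0.05, with 0.24 (SE 0.0824), and the median log2 fold change was 0.05. Akt1s1 encodes PRAS40, an inhibitory subunit of mTORC1. Of the 24 Rag GTPase and amino acid sensing genes, 1 was higher (Flcn, 0.14, SE 0.0601) and 1 lower (Mios, -0.12, SE 0.0536) at that threshold. Both counts were near the shares over all genes, and the median of the list was 0.03. Mios is a subunit of GATOR2, the complex that sestrin 2 binds. Of the 16 mTORC1 substrates and effectors, 1 (Rps6, 0.11, SE 0.0474) was higher, also near the share over all genes, with a median of 0.03. These 4 genes were named after their values were seen, and 0 genes of the 3 lists passed adjustment in edgeR. Their genes lay between -0.12 and 0.24.

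Other inducers share some of these genes. Over all genes tested, 4.54% had an unadjusted p-value under 0.05 in edgeR and a higher KO level. Of 12 p53 targets, 1 had an unadjusted p-value under 0.05 (Cdkn1a, 0.99, SE 0.207), with a median of 0.10 and 0 past adjustment in edgeR, and Cdkn1a also stands in the glucocorticoid list. Of the 12 glucocorticoid-responsive genes, 5 were higher at that threshold, with a median of 0.48 and 0 past adjustment. Of 16 endoplasmic reticulum chaperones and XBP1 targets, 4 were higher, with a median of 0.24 and 0 past adjustment. In KO2 13 of them were highest, against 4638 of the 21237 genes tested. The summed level of the 16 was 1676 to 1880 CPM in WT and 1704, 2417 and 1798 CPM in KO1 to KO3. The part of this list in the levels of the members was not tested.

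**Figure D5:**
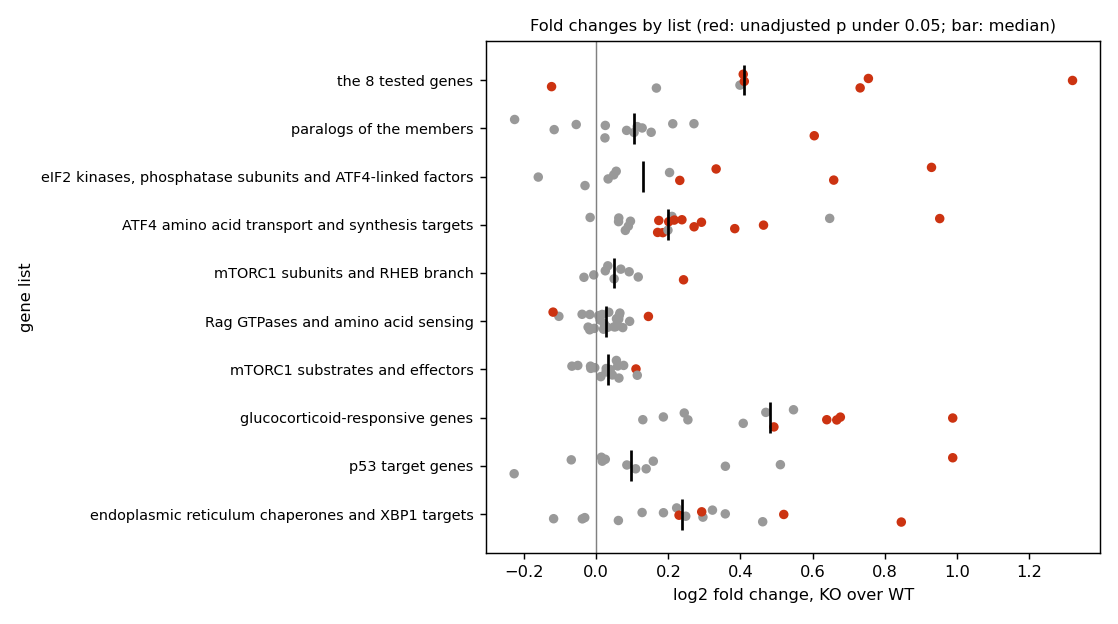
Log2 fold change of KO over WT (horizontal axis) for each tested gene of 10 lists (rows), in red where the unadjusted edgeR p-value was under 0.05, with the list median as a bar. The 8 tested genes of the group have a median of 0.41, and the 3 mTORC1 lists lie close to 0.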

How the data were processed

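Long RNA of 6 mouse brains was sequenced. The authors deposited raw read counts per gene, in the layout of STAR, with 3 columns by strand. STAR 2.7.0f and cutadapt 1.9.1 are named in the submitters' processing notes; the genome build is not given in the sources used here. The 55450 gene IDs are those of GENCODE M21 (GRCm38), from which symbols, positions and exon lengths were taken. The fourth column, with 94.6% to 94.8% of stranded counts, was used. Reads in no gene, in several genes or mapping to several places stayed out.

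Counts were filtered (filterByExpr), scaled by TMM and tested with edgeR 4.0.16 in R 4.3.3 (quasi-likelihood test, genotype only, 6 libraries), with Benjamini-Hochberg adjustment over 21237 genes. The SE is the fold change divided by the square root of F. Replicates were distinct (chi-square per degree of freedom 4.39 to 9.35). DESeq2 1.42.0 and limma 3.58.1 were alternatives, as were other scalings and filters, the unstranded column, a replicate block and each library left out. The test was checked on counts drawn from the fitted means, with 200 genes changed by a log2 size of 0.25, 0.5 or 1. It recovered 6%, 56.5% and 83% of them at adjusted p under 0.05. Of its calls 47.8%, 12.4% and 6.74% were false, so most changes of 0.25 and many of 0.5 would be missed. Nothing in the labels ties same-numbered animals.

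The members and lists were chosen with earlier results of these data known. All 9 members, Trmt1l, Atf4 and paralogs were named (a paralog and a gene from the likeness ranking are not reported here), and genes of other lists could be named (up to 4 a list) with an unadjusted p under 0.01 and at least 1 CPM; genes outside this are said to be named after their values were seen. Genes like the members were ranked by root mean square distance of centred log2 CPM.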

Additional observations from a re-analysis of the deposited data

How the results depend on the processing

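Each of the 8 tested members kept its direction under every one of the 15 alternatives in which it was tested (14 for Trib3 and Cebpb, which a mean count of at least 50 removed). Over the 6 fits that left out 1 library, members called stayed at 0, members with an unadjusted p-value under 0.05 and a higher KO level numbered 2 to 5, non-overlapping members 3 to 5, genes called 2 to 5, and the median log2 fold change of the members lay between 0.29 and 0.50. The fewest such members (2) were found without WT3 and without KO3, and without WT1 there were 3. Of these fits, the share of all genes at that p-value was taken only without KO3, at 4.42%. Non-overlap is easier to reach with fewer libraries, and its share over all genes was not taken in these fits. The 3 to 5 therefore cannot be set against the count with all libraries. Trib3 ranged from 0.32 to 1.68 and Cebpb from 0.0063 to 0.43. Without a filter on low counts 298 genes and 6 members passed; DESeq2 called 25 genes, and limma-voom left 3 members with an unadjusted p-value under 0.05 and a higher KO level. The replicate block gave 4 genes and 0 members called; deviations of same-numbered libraries correlated at 0.04, -0.03 and -0.06 across genes, so the numbers gave no sign of pairing. The paralogs Trib2 (-0.0191 without WT1, -0.0142 without WT2, -0.0292 without KO2; up to 0.1112), Trib1 (-0.0159, up to 0.3335) and Sesn1 (-0.0386, up to 0.0591; both without KO2) turned sign; the cause was not tested. Depth limits Gdf15, Cebpb and Trib3 most.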

Other observations

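The average of the 6 members with at least 1 CPM, as centred log2 CPM, was -0.28, -0.09 and -0.20 in WT1 to WT3, against 0.12, 0.01 and 0.45 in KO1 to KO3. Among 17295 other genes with at least 1 CPM, the nearest to this profile over the 6 libraries by root mean square distance were Cox6a2 (0.0412), Gm20208 (0.0618), Aspg (0.0667) and Flnc (0.0674). Flnc, which encodes filamin C, stood at 4.45, 5.26 and 4.68 CPM in WT1 to WT3, against 6.56, 6.09 and 7.91 CPM in KO1 to KO3. Because the genes were ranked by likeness to this profile, their order over the libraries follows from the choice.

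Among markers of other cell classes, the 8 choroid plexus markers summed to 454.8, 445.5 and 380.7 CPM in KO1 to KO3, all above the 321.5 to 376.4 CPM of WT. The 5 blood markers were all highest in KO1, against 2750 of the 21237 genes tested. The 5 summed to 247.5, 98.3 and 180.9 CPM in KO1 to KO3, against 109.1 to 149.2 CPM in WT. The part of either list in the levels of the members was not tested.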
